A study of Mus musculus with 10 samples.

Results

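The intermediate filament genes described here are 10: the keratin genes Krt18, Krt19, Krt8 and Krt7, the mesenchymal, muscle and progenitor filament genes Vim, Des and Nes, and the nuclear lamin genes Lmna, Lmnb1 and Lmnb2. They were chosen from the read counts of these libraries, with the contrast between the groups below already known, and were found by matching Ensembl identifiers to mouse symbols, which gave 10 of the 26401 genes counted. Their fold changes are therefore given as a description, without a p-value. The calls made for them below, at an adjusted p under 0.05, are a description too. All 10 had enough counts to be among the 12964 genes tested.

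The RNA is poly(A) RNA of 10 fibroblast populations (connective tissue cells grown from mouse embryos), which had been immortalized and are labelled C57Bl/6N. In 5 populations the share of mutant mitochondrial genomes (heteroplasmy) was high, and in 5 it was low. All 10 carry the mitochondrial DNA change m.5024C>T, so the low populations are no mutation-free controls, and all grew without treatment in high-glucose medium with 10% FBS and 50 µg/ml uridine at 37 °C. Each population has its own clone number and gave 1 library, so a library stands for 1 population, and p-values measure the spread between populations. The sources used here do not say how the clones or the immortalized cells were made, nor how large each mutant share was.

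Intermediate filaments are rope-like parts of the cytoskeleton, beside actin and microtubules. A keratin filament needs 1 type I and 1 type II keratin in equal amounts: Krt18 and Krt19 encode type I keratins of simple epithelia, and Krt8 and Krt7 encode type II partners. Vimentin (Vim), the filament of mesenchymal cells such as fibroblasts, assembles by itself, as does the muscle filament desmin (Des), while nestin (Nes), known from neural and muscle progenitors, co-assembles with vimentin. Lamins line the inside of the nuclear envelope, lamin A and C from Lmna and the B-type lamins from Lmnb1 and Lmnb2.

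Library totals were 19264064 to 28208576 counts in high and 17318372 to 24967748 in low libraries. Levels are given as CPM, read counts relative to the TMM-scaled library total, or for Gm42418 alone to the unscaled total. This ribosomal RNA-like transcript took 783 to 1134 CPM in high libraries. It took 1164, 40196, 7703, 1490 and 1569 CPM in low 1 to low 5, so low 2 and low 3 stand apart.

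Of the filament genes, Krt18 rose and Nes fell in high populations. Mean Krt18 RNA was 249-fold that of low populations, with a log2 fold change of 7.95 that was 7.29 without high 1, the highest library. The type II genes Krt8 and Krt7 and the type I gene Krt19 had lower mean levels in high populations. Des had a higher mean, and Vim, Lmna, Lmnb1 and Lmnb2 had group means within 1.34-fold of each other. These 2 calls (adjusted p under 0.05, edgeR's quasi-likelihood test with Benjamini-Hochberg adjustment over all genes) are 2 of 10 genes, beside 4.86% of all tested genes. The groups did not overlap for 3 of the 10, Krt18, Krt19 and Nes, beside 7.17% of all tested genes. The genes were chosen with this contrast known, so neither count is evidence about the set. In bulk RNA, fewer cells of a type and less RNA per cell cannot be told apart.

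Without low 2 and low 3 edgeR called 0 of the 10 filament genes (6 at an unadjusted p under 0.05) and 56 genes in all, and Krt18 was then at 8.14 and Nes at -1.32 on the log2 scale. That is 0 of 10 beside 0.414% of all genes. Counts at an unadjusted p under 0.05, here and below, were not set beside the share of all genes at that threshold. They are a description. Limma-voom called Krt19 and Nes but not Krt18, 2 of 10 beside 5.3% of all genes, and DESeq2 called Des, Krt18, Krt19, Krt7, Krt8 and Nes, 6 of 10 beside 11.4% of all genes. Without high 4 or without high 5 edgeR called Krt18, Nes, Krt19 and Des, 4 of 10 beside 6.1% and 3.27% of all genes.

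**Figure D1:**
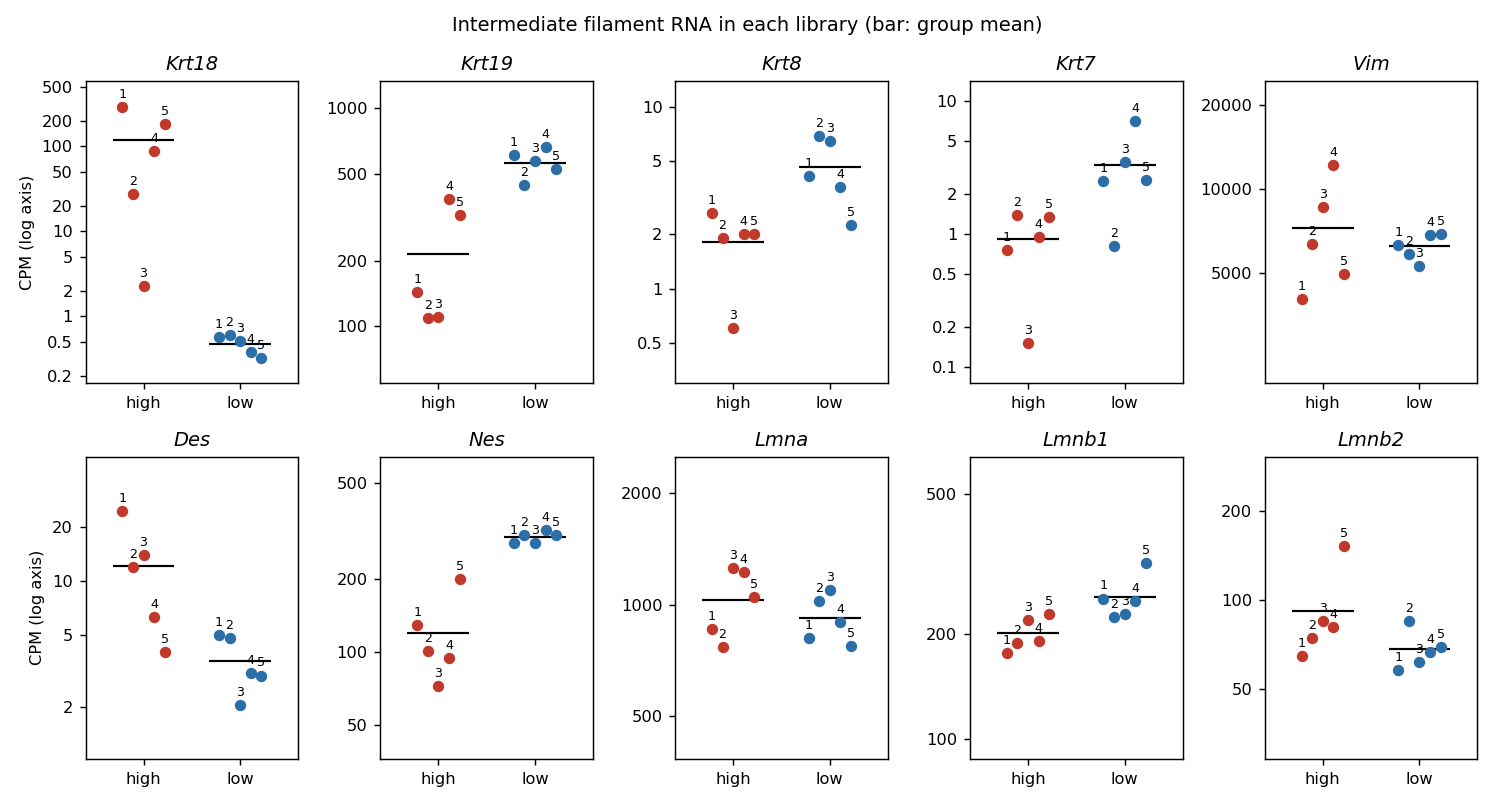
CPM (log axis) of each filament gene in high and low libraries, with library numbers at the points and bars at the group means. Krt18, Krt19 and Nes separate the groups without overlap, and high 3 lies lowest among high libraries for Krt18, Krt8, Krt7 and Nes.

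Krt18 and Krt8 are neighbours on chromosome 15 (GRCm38): Krt18 runs from 102028180 to 102032027 on the plus strand and Krt8 from 101996698 to 102004482 on the minus strand, with 23.7 kb between them. Krt7 is also on chromosome 15 (101411043 to 101430313), and Krt19 is on chromosome 11 (100140810 to 100148665). Vim is on chromosome 2 (13573927 to 13582826), Des on chromosome 1 (75360329 to 75368579) and Nes and Lmna on chromosome 3 (87971078 to 87980451 and 88480147 to 88509956). Their start regions are printed because the partners lie side by side and differ in direction, and that of Nes because it is the other gene called. Each run is 280 bases of RefSeq sequence (GRCm38.p6), 250 before the RefSeq start and 30 from it on, in the direction of the gene. They are chr15:102027966-102028245 (plus) for Krt18, chr15:102004313-102004592 (minus) for Krt8 and chr3:87970843-87971122 (plus) for Nes. Capitals mark matches, on either strand, to any of 4 motifs. These are TATAAA for the core of a TATA box, GGGCGG for a GC box, CCAAT for the box of that name and TGANTCA for an AP-1 site, and a GC box on the other strand reads CCGCCC.
Krt18: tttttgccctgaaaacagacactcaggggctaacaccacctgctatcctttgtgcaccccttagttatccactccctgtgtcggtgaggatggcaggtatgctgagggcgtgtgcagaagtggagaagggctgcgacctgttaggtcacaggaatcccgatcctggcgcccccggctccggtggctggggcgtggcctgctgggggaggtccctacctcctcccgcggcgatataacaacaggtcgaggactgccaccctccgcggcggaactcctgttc
Krt8: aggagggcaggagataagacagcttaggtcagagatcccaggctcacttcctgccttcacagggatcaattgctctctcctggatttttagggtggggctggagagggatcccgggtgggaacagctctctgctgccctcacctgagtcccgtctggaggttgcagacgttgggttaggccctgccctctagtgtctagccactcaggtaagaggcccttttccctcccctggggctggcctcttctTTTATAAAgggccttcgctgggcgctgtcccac
Nes: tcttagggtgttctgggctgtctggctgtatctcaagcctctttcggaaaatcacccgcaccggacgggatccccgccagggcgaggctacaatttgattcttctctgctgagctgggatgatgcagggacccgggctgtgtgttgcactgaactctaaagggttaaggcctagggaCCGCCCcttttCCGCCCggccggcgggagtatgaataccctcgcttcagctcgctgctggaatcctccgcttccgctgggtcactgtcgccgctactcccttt
Krt18 held none of these letters, Krt8 held TATAAA and its overlapping reverse match next to the start, and Nes held 2 GC boxes. Among all 32851 windows of this length, 13.1% held TATAAA, 34.7% GGGCGG, 36.1% CCAAT and 7.46% TGANTCA. CpG counts were 15 for Krt18, 5 for Krt8 and 18 for Nes, with a median of 6 over all windows. RefSeq windows matched 8 of the 10 genes, and these matches are a description of letters, not of sites.

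Krt18 encodes the type I partner of Krt8 in the filaments of simple epithelia. It stood at 294, 27.2, 2.27, 88.4 and 182 CPM in high 1 to high 5, against 0.570, 0.598, 0.516, 0.377 and 0.327 CPM in low 1 to low 5. Every high library was above every low library, with high 3 by far the lowest of its group and high 1 the highest. The mean was 119 ± 120 CPM in high and 0.477 ± 0.120 CPM in low populations (SD, n = 5 each), with a log2 fold change of 7.95 (SE 1.18). Low libraries had 6 to 11 Krt18 reads each, and high libraries 60 to 5786, so the low level rests on 47 reads in all. The highest high library held 129.5 times the CPM of the lowest. On the log2 scale the SD within high populations was 2.78, at the 99.3 percentile of all tested genes, while that within low populations was 0.32, at the 51.9 percentile. The median SD of all tested genes was 0.40 within high and 0.31 within low populations.

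The other type I keratin, Krt19, which lacks the tail domain of other keratins, was the most abundant keratin in low populations. It stood at 143, 109.5, 109.9, 384 and 325 CPM in high 1 to high 5, against 608, 442, 573, 666 and 524 CPM in low 1 to low 5. The groups did not overlap, and high 4 and high 5 came closest to the low level. The mean was 214 ± 130 CPM in high and 563 ± 84.9 CPM in low populations (SD, n = 5 each), with a log2 fold change of -1.39 (SE 0.36) that was not called.

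Krt8, the type II partner, was scarce in both groups. It stood at 2.59, 1.89, 0.605, 1.99 and 2.00 CPM in high 1 to high 5, against 4.16, 6.90, 6.47, 3.60 and 2.23 CPM in low 1 to low 5. In 4 of 5 high libraries it was below every low library, with high 1 above low 5. The log2 fold change was -1.36 (SE 0.43), not called, and rested on 221 reads in high and 465 in low populations. Without low 2 and low 3, where Krt8 was highest, the log2 fold change was -0.86 (SE 0.48). Read counts of Krt8 carry an uncertainty: the pseudogene Krt8-ps on chromosome 7 matches 941 bases of its transcript (48.1%) at 98.6% identity, and the sources used here do not say how reads that fit both were assigned. Krt8 and Krt7 also overlap genes on the other strand, the noncoding Gm36026 for Krt8 and Gm671 for Krt7. Neither is among the genes counted, and the strand setting of the counting is not stated.

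Krt7, a type II keratin of ducts and mesothelium, was scarcer still. It stood at 0.762, 1.38, 0.151, 0.955 and 1.33 CPM in high 1 to high 5, against 2.51, 0.815, 3.47, 7.03 and 2.56 CPM in low 1 to low 5. The groups overlapped through low 2, which lay below 3 high libraries, and high 3 was lowest, with 4 reads. The log2 fold change was -1.84 (SE 0.62), not called, on 115 reads in high and 348 in low populations.

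Keratin partners were compared per kb of transcript, since reads scale with length. Krt18 was 155, 19.6, 5.11, 60.6 and 124 times Krt8 in CPM per kb in high 1 to high 5, against 0.187, 0.118, 0.109, 0.143 and 0.199 times in low 1 to low 5. Krt18 was above Krt8 in every high library and below it in every low library. Krt18 made up 67.8%, 20.7%, 2.07%, 19.9% and 37.6% of all type I keratin CPM per kb in high 1 to high 5, against 0.0612% to 0.144% in low libraries. Krt19 made up 30.1% to 91.2% in high and 97.4% to 98.9% in low libraries, so Krt18 exceeded Krt19 only in high 1.

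Summed over the 39 keratin genes counted, 20 of type I and 19 of type II, type I levels were 76.5 to 337 CPM per kb in high and 288 to 428 in low libraries, which overlapped. Type II levels were 0.941 to 13.8 CPM per kb in high and 12.2 to 27.8 in low libraries, and Krt80, a type II keratin, was its largest component, with 48.5% to 89.9% of the type II sum in high and 72.7% to 88.7% in low libraries. The ratio of type I to type II was 47.4 ± 22.9 in high and 22.3 ± 6.09 in low populations (SD, n = 5 each), with overlap. In single libraries the ratio ran from 24.4 to 81.3 in high and from 15.4 to 31.9 in low populations.

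**Figure D2:**
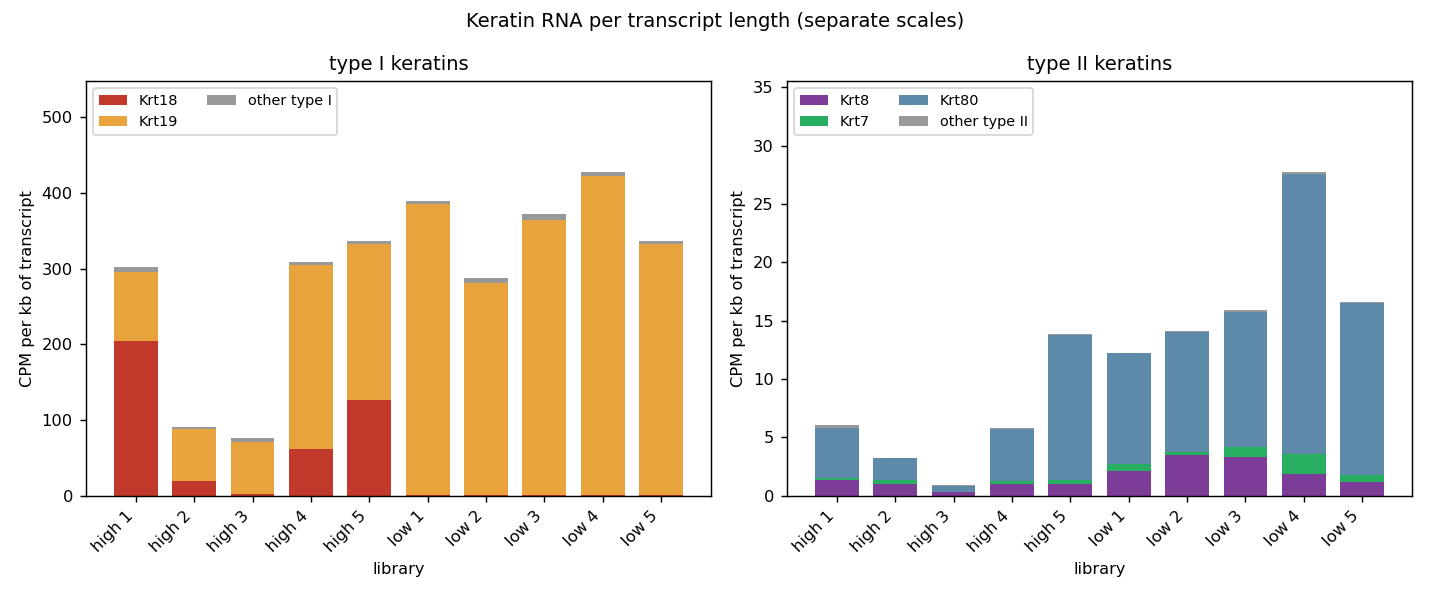
Keratin RNA in each library as CPM per kb of transcript, split by gene, for type I keratins and for type II keratins. Type I RNA is nearly all Krt19 in low libraries and a varying mix of Krt18 and Krt19 in high libraries, while Krt80 is the largest component of type II RNA in each library, at 48.5% in high 3 and above that in the other 9.

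Vim was the most abundant filament gene, at 3302 CPM per kb in high and 2844 in low populations. It stood at 4021, 6361, 8642, 12209 and 4976 CPM in high 1 to high 5, against 6310, 5858, 5274, 6857 and 6880 CPM in low 1 to low 5. High libraries lay both below and above all low libraries, 2 on each side. The log2 fold change was 0.22 (SE 0.27), and without high 4 it was -0.05, so its sign rests on that library. The 4 keratins together were 1.82% to 16.2% of Vim in CPM per kb in high and 10.7% to 15.3% in low libraries.

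Des encodes the filament of muscle cells. It stood at 24.5, 12.04, 13.9, 6.28 and 4.03 CPM in high 1 to high 5, against 5.01, 4.84, 2.06, 3.10 and 2.99 CPM in low 1 to low 5. In 4 of 5 high libraries it was above every low library, and high 5 lay within the low range. The log2 fold change was 1.75 (SE 0.47) and was not called. Of 14 listed muscle genes 3 were tested, of which edgeR, DESeq2 and limma-voom called 0 and 0 had an unadjusted p under 0.05. The list summed to 21.3 to 148 CPM in high and 86.6 to 169 CPM in low libraries, nearly all of it Cryab, a small heat shock protein found in many tissues.

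Nes stood at 130, 100.8, 72.4, 94.3 and 199 CPM in high 1 to high 5, against 283, 305, 282, 320 and 304 CPM in low 1 to low 5. It was lower in every high library than in any low library, with high 5 nearest. The mean was 119 ± 49.2 CPM in high and 299 ± 16.3 CPM in low populations (SD, n = 5 each), with a log2 fold change of -1.32 (SE 0.24). The low populations were nearly alike: their SD on the log2 scale was 0.079, at the 1.30 percentile of all tested genes, against 0.55 in high populations, at the 69.9 percentile. Per kb, Nes was 0.276% to 1.43% of Vim in high and 1.58% to 1.91% in low libraries, without overlap. Of 10 listed neural progenitor genes 1 was tested, Msi1 (an RNA-binding protein), which was at -0.84 (SE 0.77) on the log2 scale and was not called.

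None of the lamin genes was called, and their log2 fold changes were the closest to 0 beside that of Vim. Lmna stood at 859, 767, 1252, 1227 and 1051 CPM in high 1 to high 5, against 810, 1024, 1092, 898 and 771 CPM in low 1 to low 5, which overlapped, with a log2 fold change of 0.17 (SE 0.18). Lmnb1, on chromosome 18, stood at 176, 188, 218, 190.2 and 228 CPM in high 1 to high 5, against 252, 223, 227, 247 and 318 CPM in low 1 to low 5. In 4 of 5 high libraries Lmnb1 was below every low library, and its log2 fold change was -0.34 (SE 0.14). Lmnb2 stood at 64.7, 74.4, 84.7, 80.6 and 153 CPM in high 1 to high 5, against 57.8, 84.9, 61.5, 66.5 and 69.2 CPM in low 1 to low 5. Only high 5 was above the low range, and the log2 fold change of 0.43 (SE 0.23) was 0.16 without high 5. Lmnb2 is on chromosome 10, whose tested genes had a median log2 fold change of 0.29, against 0.02 over all genes. The ratio of Lmnb1 to Lmnb2 per kb was 1.77 to 3.23 in high and 3.11 to 5.45 in low libraries, overlapping, and Lmna made up 72.6% to 81.1% of lamin RNA per kb in high and 64.8% to 77.9% in low libraries.

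**Figure D3:**
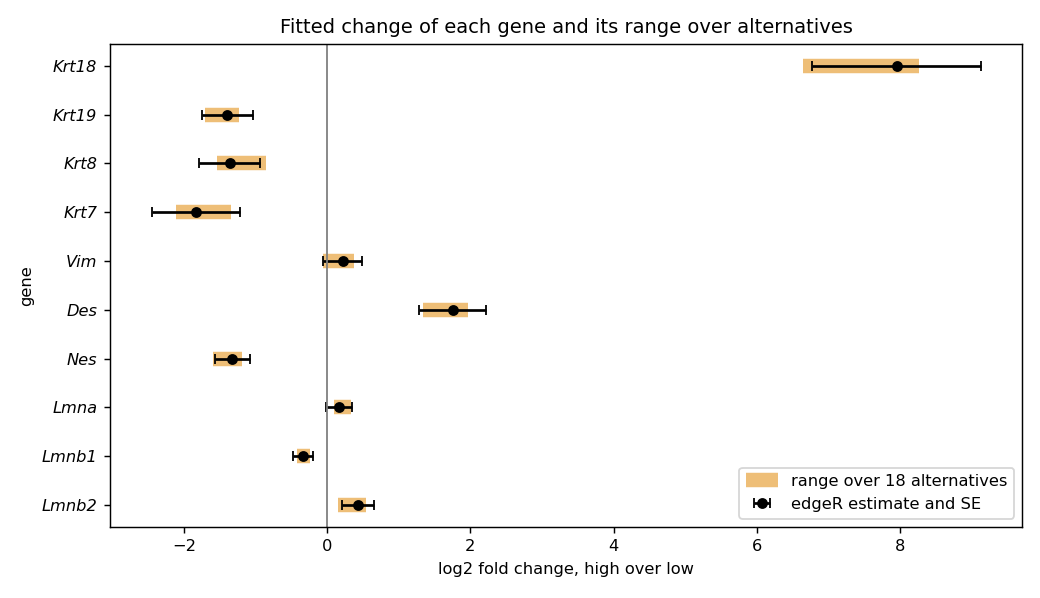
Log2 fold change, high over low, of each filament gene (point) with its SE (line) and its range over 18 alternative fits (box). Krt18 lies at 7.95, Des at 1.75, the other keratins and Nes between -1.84 and -1.32, and Vim and the lamins between -0.34 and 0.43.

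**Figure D4:**
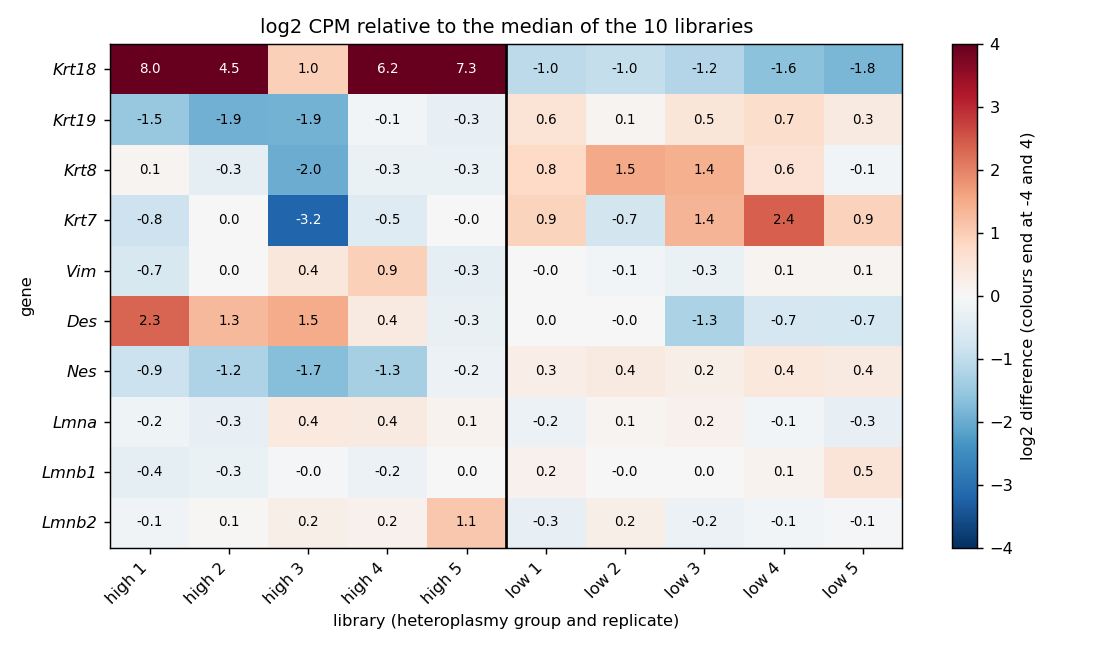
Log2 CPM of each filament gene in each library, relative to that gene's median over the 10 libraries, with colours that end at -4 and 4. Krt18 spans the widest range within high populations, and high 3 is the lowest high library for Krt18, Krt8, Krt7 and Nes.

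Genes whose profile over the 10 libraries was most like that of Krt18 were Rasl11a, Mgst1, Rnf144b, Fam13a and Plekhg6. Likeness was the root mean square difference of centred log2 CPM, which was 2.29 to 2.34 for these 5 and 3.71 at the median of all tested genes. All 5 were called higher in high populations. The measure includes the difference between groups, so genes near Krt18 tend to be those that rose, and these calls are no separate result. Fam13a and Rnf144b rested on 7 and 20 reads in low libraries. Krt8 ranked 11948 in likeness to Krt18. Mgst1, Fam13a and Plekhg6 are on chromosome 6, whose tested genes had a median log2 fold change of 0.34. Its part in their change was not tested. Nearest to Krt8 were Slc5a5, Parp8, Wnt10b, Ets2 and Gpr176, at 0.33 to 0.43, with a median over all genes of 1.01, and Nes ranked 62, Krt19 723 and Krt18 12960. These ranks include the difference between groups and are a description. Within 250 kb of Krt18, 10 other genes apart from Krt8 were tested, of which edgeR called 0, DESeq2 0 and limma-voom 0. At an unadjusted p under 0.05 there was 1. Their log2 fold changes ran from -0.98 to 0.48, with a median of -0.08.

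Other genes were counted by 16 lists, which hold filament relatives and partners, regulators, and markers of cell types. Over all lists 98 genes beside the 10 were tested, 1 rose and 6 fell (7.14% called, beside 4.86% of all genes). Of the 33 other keratin genes that were both listed and counted, 3 were tested, Krt80, Krt13 and Krt10. None was called by edgeR, DESeq2 or limma-voom (0 of 3), and 1 had an unadjusted p under 0.05. Krt80 had a log2 fold change of -1.57 (SE 0.66). Among cytoplasmic filament genes, 1 of 4 tested was called. Sync, which encodes syncoilin, a partner of desmin in muscle, was 1.44 to 2.32 CPM in high and 4.61 to 9.45 in low libraries, and fell with a log2 fold change of -1.91 (SE 0.32, edgeR adjusted p = 0.0131). Synm, for synemin, was at 1.33 and was not called.

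Among 6 tested desmosome genes, whose plaques anchor keratins, 1 was called. Pkp1, for plakophilin 1, was 7.52 to 20.2 CPM in high and 32.4 to 86.0 in low libraries, and fell with a log2 fold change of -1.93 (SE 0.33, edgeR adjusted p = 0.0135). Of 9 tested plakin and linker genes 1 fell: Ktn1 (log2 fold change -0.61, edgeR adjusted p = 0.0479), which encodes kinectin, an anchor of kinesin on the endoplasmic reticulum rather than a filament linker. It is on chromosome 14, where the median log2 fold change was -0.44. Plec, for the large linker plectin, was at 0.61 (SE 0.22) and was not called.

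Of 18 tested lamina partners, 1 rose: Syne2, for nesprin 2, which links the nuclear envelope to the cytoskeleton (log2 fold change 0.58, edgeR adjusted p = 0.0457). Of 6 prelamin processing genes, 1 fell: Fnta, for the alpha subunit of the enzymes that farnesylate and geranylgeranylate proteins, with 61.3 to 88.5 CPM in high and 117 to 141 in low libraries (log2 fold change -0.74, SE 0.13, edgeR adjusted p = 0.0157). Fnta is on chromosome 8, whose median log2 fold change was -0.59, and its part in the change was not tested. Of 16 tested regulators known to act on keratin genes, 1 fell: the transcription factor Ets2 (log2 fold change -1.10, edgeR adjusted p = 0.0461). With 1 library left out, Syne2 held in 1 of 10 fits (without high 1), Ktn1 in 2 (without high 1 or low 3) and Ets2 in 2 (without high 1 or low 5). Their adjusted p otherwise ran from 0.0541 to 0.105.

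**Figure D5:**
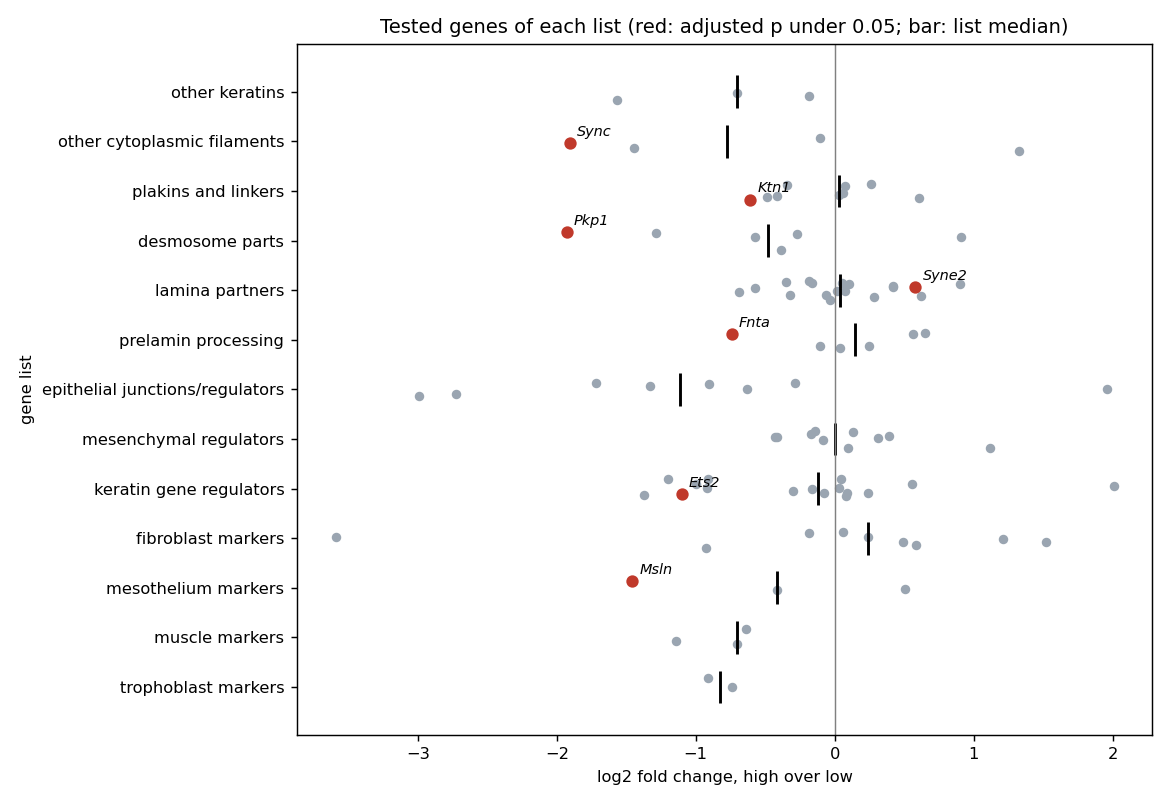
Log2 fold change, high over low, of the tested genes of each list, with bars at the list medians and called genes in red, for the 13 lists with at least 2 tested genes. No list has more than 1 called gene.

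Epithelial genes other than keratins were also counted. Of 8 tested junction and epithelial regulator genes, edgeR and limma-voom called 0 and DESeq2 2, where DESeq2 called 11.4% of all genes. At an unadjusted p under 0.05 there were 3, and the median log2 fold change was -1.12. Cdh1, for E-cadherin, was 0.0378 to 0.774 CPM in high and 0.218 to 3.76 in low libraries, whereas Grhl1, for an epithelial transcription factor, was 0.915 to 3.90 CPM in high and 0.141 to 0.968 CPM in low libraries. Of 10 epithelial-mesenchymal transition regulators edgeR and limma-voom called 0 and DESeq2 1, near its 11.4% of all genes. Their median log2 fold change was 0.00, and Snai1 was at 1.12 (SE 0.39). Of 2 tested trophoblast genes edgeR, DESeq2 and limma-voom called 0 and 0 had an unadjusted p under 0.05, and the list summed to 5.29 to 32.1 CPM in high and 16.4 to 29.2 CPM in low libraries.

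Mesothelium, which expresses Krt7, Krt8, Krt18 and Krt19, was also listed. Of 3 tested mesothelial genes, Msln (mesothelin) fell, with 110 to 466 CPM in high and 641 to 1015 CPM in low libraries (log2 fold change -1.46, SE 0.37, edgeR adjusted p = 0.0470). With 1 library left out it held in 2 of 10 fits (without high 4 or high 5), and its adjusted p ran from 0.0546 to 0.0942 in the others. The list summed to 115 to 477 CPM in high and 648 to 1026 in low libraries, nearly all of it Msln, with 2 of its genes at 0 reads everywhere. The other tested members were Bnc2, a zinc finger protein, at 0.51 (SE 0.37) and Upk3b, a uroplakin, at -0.41 (SE 0.97) on the log2 scale, neither called. The part of such cells in the keratin values was not tested.

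The label of fibroblast was set against 12 markers. Col1a1, the main collagen of fibroblasts, was 3310 to 7321 CPM in high and 3435 to 5863 in low libraries, while Fap was at or below 0.0757 CPM in high and 0.586 CPM in low libraries and Dcn at or below 0.610 CPM in high and 3.53 CPM in low libraries. Thy1, a fibroblast surface protein, was 56.8, 11.3, 3.25, 0 and 0.399 CPM in high 1 to high 5, against at most 0.326 CPM in low libraries, and did not pass the filter on low counts. The receptors Pdgfra and Pdgfrb were at 1.52 (SE 1.07) and 1.21 (SE 0.86) on the log2 scale, with the highest level of both in high 2, and were not called. Of 9 tested fibroblast markers 6 had a higher and 3 a lower fitted level in high populations. EdgeR called 0, DESeq2 1 and limma-voom 1, beside 4.86%, 11.4% and 5.3% of all genes. An unadjusted p under 0.05 was reached by 1, Dcn, which was lower in high populations. Its log2 fold change was -3.59 (SE 0.95), not called by edgeR. The list summed to 5546 to 11686 CPM in high and 5669 to 9102 in low libraries, mostly Col1a1, Fn1 and P4hb. Col1a2, also on the list, was 404, 1.98, 614, 2.15 and 119 CPM in high 1 to high 5, against 72.9 to 886 CPM in low libraries. Endothelial markers summed to at most 2.03 CPM in high and 2.13 CPM in low libraries, and leukocyte markers to 11.7 to 90.0 CPM in high and 12.3 to 26.1 in low libraries, mostly Cd68.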

How the data were processed

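Whole read counts per Ensembl gene were taken from the table the authors deposited, with 1 column per library. Per the submitters' processing notes, STAR 2.7.8a, R 4.2.1, DESeq2 1.36.0 and the build GRCm38 were used, with no role stated. Which tool counted reads, on which strand and with which annotation is not stated. The libraries were made with a directional poly(A) kit and read as 50 bp pairs, per the labels. The deposited table of normalized values and the sample sheet were not used for measurement.

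Genes were named with GENCODE M21, which left 195 identifiers without a name. The test was edgeR 4.0.16 (R 4.3.3): default filter by group, TMM scaling, robust quasi-likelihood F-test with group as the only term, two-sided, Benjamini-Hochberg over 12964 genes, threshold 0.05. The SE was taken as log2 fold change over the square root of F. CPM use TMM-scaled totals (unscaled totals for Gm42418), log2 CPM a prior count of 2, and CPM per kb the principal transcript's length. Near copies were sought with blastn 2.17.0 (at least 95% identity over 100 bases). Alternatives were RLE and upper-quartile scaling, no filter, 1 CPM in 5 libraries, a replicate block, DESeq2 1.42.0, limma-voom (limma 3.58.1), low 2 and low 3 left out, and each library left out. The code was tested on simulated data.

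The 10 genes and the 16 lists beside them were chosen with earlier results of these data known. Genes named from a list are its called genes and, where fewer than 2 are called, from the 2 with the smallest p, besides abundant markers at their level. The 5 genes with the profile nearest to Krt18 and to Krt8 are also named. Fap, Thy1, Pdgfra, Pdgfrb, Col1a2, Upk3b, Gm42418 and Krt10 were named for their level or role after their values were seen. Total counts of 17318372 to 28208576 per library limit the precision of scarce genes such as Krt7, Krt8 and, in low populations, Krt18.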

Additional observations from a re-analysis of the deposited data

Results flagged for a closer look

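In 50 groups of 5 libraries, covering the CPM and the ratios per kb of the filament genes, a single library stood far from the other 4 in 3 groups. Chance alone marks about 1 in 20 groups if these are independent and normally distributed. Here many groups share genes, and CPM and ratios were taken without logs, so that rate need not hold. Lmnb2 was at 153 CPM in high 5, with 64.7 to 84.7 CPM in the other 4 high libraries. The ratio of Krt18 to Krt19 per kb was 2.25 in high 1, with 0.0226 to 0.616 in the other 4. Des was 0.441% of Vim per kb in high 1, with 0.0373% to 0.137% in the other 4.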

How the results depend on the processing

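Of the 10 filament genes, 2 to 4 were called when 1 library was left out, beside 232 to 821 genes in all. The count was 4 without high 4 or without high 5, beside 6.1% and 3.27% of all genes. Krt19 and Des were then called beside Krt18 and Nes. Krt18 and Nes were called in all 10 fits with 1 library left out. Over all 18 alternatives Krt18 was called in 16, Nes in 17, Krt19 in 6, Des in 4, and Krt7 and Krt8 in 1 each. Log2 fold changes ran from 6.64 to 8.27 for Krt18 and from -1.60 to -1.19 for Nes, and the sign turned for Vim alone, without high 4 (-0.05). DESeq2 called 1475 genes, 6 of the 10 and 20 list genes, and without low 2 and low 3 edgeR called 56, 0 and 0. Upper-quartile scaling and no filter each called 4 list genes. Leaving out 1 library gave 232 to 821 genes in all and 3 to 10 list genes, against 630 and 7 with all libraries. In all genes the count was 359 without high 2, 232 without high 3, and 236, 244, 254, 270 and 372 without low 1, low 2, low 3, low 4 and low 5. The cause of these shifts was not tested, beyond the fewer libraries. The deviations of same-numbered libraries correlated at 0.46, -0.05, 0.03, 0.07 and 0.16 for numbers 1 to 5, and 2 of 5 high libraries matched best with their own number. These values do not settle whether library numbers pair the groups. With the replicate block edgeR called 577 genes, 3 of the 10 (Krt19 added) and 5 list genes. Depth limits Krt18 in low libraries, at 6 to 11 reads each, and Krt7 in high 3, at 4.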
